A study of Mus musculus with 18 samples.

Results

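The 9 genes described here, Th, Ddc, Gch1, Pts, Qdpr, Slc18a2, Slc6a3, Maoa and Maob, are those through which a dopamine neuron makes, stores, takes back and breaks down its transmitter. They were chosen by name: every probe whose gene symbol in the array annotation was one of the 9 was taken, which gave 14 probes among the 45281 probes and 30869 symbols of the Illumina MouseWG-6 v2 array. Total RNA came from the D3 line (ESD3), mouse embryonic stem cells of strain 129s2/SvPas kept on feeder fibroblasts from mouse embryos with LIF and bFGF. All cells carried a virally delivered short hairpin RNA (shRNA). Per the study's methods, transduced cells were selected with puromycin, and the differentiation used sonic hedgehog, FGF8 and ascorbic acid. The hairpin was directed against luciferase in the control cells and against HPRT, the purine salvage enzyme hypoxanthine-guanine phosphoribosyltransferase, in the knockdown cells. Both were measured as embryonic stem cells (ES stage), as spherical neural masses (SNM stage, a neural precursor culture) and at the final neuron stage of a dopaminergic differentiation (neuronal stage). Each of the 6 conditions had 3 arrays, 18 in all. The cultures were pooled before hybridisation, so the 3 arrays of a condition measured 1 RNA pool. Every SD and every test below therefore covers array error alone, not the spread between cultures, and the small number of arrays limits the precision of each value.

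Dopamine synthesis starts with tyrosine hydroxylase, the product of Th, which makes L-DOPA from tyrosine and is the rate-limiting step. Aromatic L-amino acid decarboxylase, the product of Ddc, then makes dopamine from L-DOPA, and in other cells serotonin from 5-hydroxytryptophan. Tyrosine hydroxylase needs tetrahydrobiopterin, which Gch1 and Pts help to make from GTP and which Qdpr regenerates. The vesicular transporter VMAT2, the product of Slc18a2, loads monoamines into vesicles, the dopamine transporter, the product of Slc6a3, takes dopamine back into the neuron, and the monoamine oxidases of Maoa and Maob break it down. Inherited loss of HPRT causes Lesch-Nyhan disease, in which dopamine is low in the basal ganglia, and the comparison of knockdown with control, stage by stage, asks how the loss alters gene expression as cells are led towards dopamine neurons.

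The promoters of Th and Ddc are shown because these are the enzymes of the pathway's 2 steps, and because Th was at background while Ddc had the largest difference between knockdown and control cells, at the neuronal stage. Each sequence is the 250 bases before a RefSeq transcription start on the minus strand (GRCm38.p6), with matches to the motifs searched in capitals. The Th window is chr7:142899996-142900245 and the Ddc windows are chr11:11898145-11898394 and chr11:11890409-11890658.
Th: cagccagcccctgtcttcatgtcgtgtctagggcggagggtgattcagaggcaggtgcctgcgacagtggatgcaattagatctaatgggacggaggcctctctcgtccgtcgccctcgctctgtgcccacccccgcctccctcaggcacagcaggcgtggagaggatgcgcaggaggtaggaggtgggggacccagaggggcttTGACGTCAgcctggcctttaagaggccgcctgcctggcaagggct
Ddc, start 1: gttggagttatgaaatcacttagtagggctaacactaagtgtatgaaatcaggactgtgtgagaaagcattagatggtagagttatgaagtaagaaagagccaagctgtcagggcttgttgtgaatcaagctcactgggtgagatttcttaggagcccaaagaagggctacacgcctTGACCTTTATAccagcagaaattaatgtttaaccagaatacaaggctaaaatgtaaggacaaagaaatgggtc
Ddc, start 2: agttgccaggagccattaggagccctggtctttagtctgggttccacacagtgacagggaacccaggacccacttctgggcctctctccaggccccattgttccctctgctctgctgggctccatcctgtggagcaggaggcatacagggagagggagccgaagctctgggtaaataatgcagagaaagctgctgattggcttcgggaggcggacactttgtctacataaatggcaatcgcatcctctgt
The 3 motifs searched, on both strands, were TGACGTCA, the cyclic AMP response element, TATAAA, the TATA box, and AAAGGTCA, to which nuclear receptors of the Nr4a2 family bind. The Th window held TGACGTCA, which begins 45 bases before the start. The window of Ddc start 1 held the reverse complements of AAAGGTCA, beginning 73 bases before the start, and of TATAAA, beginning 68 bases before it, and these overlap. The window of Ddc start 2 held none of the 3. Over all 32851 promoter windows of the same length, 1.55% held TGACGTCA, 12.4% TATAAA and 1.34% AAAGGTCA. The annotation of the array does not tell which Ddc start a probe follows.

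The values are average bead signals in arbitrary units of brightness, with no background subtracted. A detection p-value goes with each, which is the fraction of negative-control beads on that array with a higher signal, and a probe counted as detected where it was under 0.05. The arrays detected between 18827 and 22202 probes. Arrays of 1 condition correlated at 0.989 to 0.996 over the 23172 probes detected on every array of at least 1 condition. Differences were computed on a normalized log2 scale with limma, over all probes of the array. A probe was tested in a comparison if either condition had it detected on every array, and called if its Benjamini-Hochberg adjusted p-value was under 0.05 and its change at least 1.5-fold. Where a gene had more than 1 probe, the brightest stands for it. The target of the shRNA was checked first. The Hprt1 probe gave 4396, 4333 and 4338 in control cells and 285, 305 and 215 in knockdown cells at the ES stage, 2446, 2688 and 2281 against 701, 720 and 855 at the SNM stage, and 2364, 1860 and 2202 against 143, 149 and 160 at the neuronal stage. Hprt1 was thus lower in every knockdown array at every stage, by 4.09 ± 0.08, 1.76 ± 0.08 and 4.45 ± 0.08 on the log2 scale (± SE, adjusted p = 7.15e-15, 3.86e-11 and 9.64e-17), and the difference was smallest at the SNM stage.

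Of the 9 genes, 6 had a brightest probe with detection on every array of some condition and could be tested: Ddc, Gch1, Pts, Qdpr, Slc18a2 and Maob. Th, Slc6a3 and Maoa could not be tested in any comparison. On the whole array, 51.2% of probes met this condition. In control cells at the neuronal stage, 6 of the 9 genes were detected on all 3 arrays, 2 on none, and Th on 1; in knockdown cells at that stage, 6 were detected on all 3, 2 on none, and Slc6a3 on 1.

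**Figure D1:**
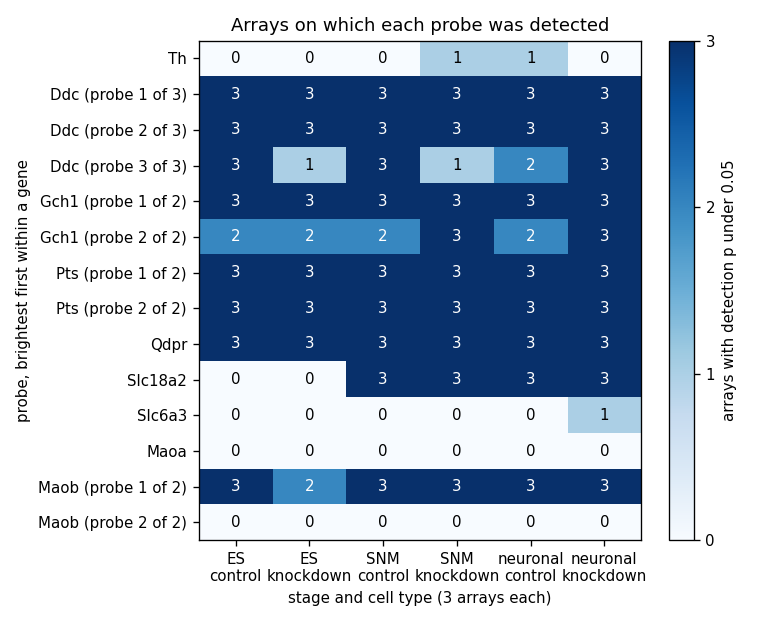
Number of arrays, of 3, on which each of the 14 probes (rows, brightest first within a gene) was detected at a p-value under 0.05 in each stage and cell type (columns). Th, Slc6a3, Maoa and the second Maob probe were detected on 0 or 1 array of every condition, and Slc18a2 on none at the ES stage but on all 3 of every later condition.

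Th, the gene by which dopamine neurons are usually recognised, was detected on 2 of 18 arrays. Its single probe gave 70.6, 56.7 and 70.01 in control and 63.6, 69.8 and 63.4 in knockdown ES cells. SNM arrays gave 69.97, 69.0 and 74.1 in control and 73.8, 70.9 and 74.1 in knockdown cells, and at the neuronal stage 68.8, 63.6 and 77.1 in control and 69.9, 60.6 and 73.0 in knockdown cells. The detected arrays were the second knockdown SNM array, at 70.9, and the third control neuronal array, at 77.1. Control and knockdown arrays overlapped at every stage, while the knockdown SNM arrays lay just above those of both ES conditions. The Th probe thus showed no signal above background that was shared by the arrays of a condition. Since the probe of an expressed transcript can stay dark, this does not show that the RNA was absent, and in bulk RNA few cells with much of a transcript cannot be told apart from many cells with little.

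Ddc had the largest difference between knockdown and control cells of the 6 genes tested, at the neuronal stage. Its brightest probe gave 551, 492 and 498 in control and 605, 734 and 511 in knockdown ES cells, and these overlapped (log2 fold change 0.15 ± 0.08 SE, adjusted p = 0.247). At the SNM stage it gave 435, 452 and 404 in control and 270, 256 and 339 in knockdown cells. Every knockdown array lay below every control array, and Ddc was called lower, by 0.70 ± 0.08 on the log2 scale (1.62-fold, adjusted p = 2.20e-06). At the neuronal stage it gave 904, 653 and 799 in control and 2208, 2308 and 2545 in knockdown cells. Here the order was turned round, with every knockdown array above every control array, and Ddc was called higher, by 1.71 ± 0.08 (3.27-fold, adjusted p = 2.31e-11). In order of the normalized level, the knockdown neuronal arrays came first, then the control neuronal arrays, both ES conditions, the control SNM arrays and last the knockdown SNM arrays. Of the neighbours in this order, only the ES conditions overlapped.

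**Figure D2:**
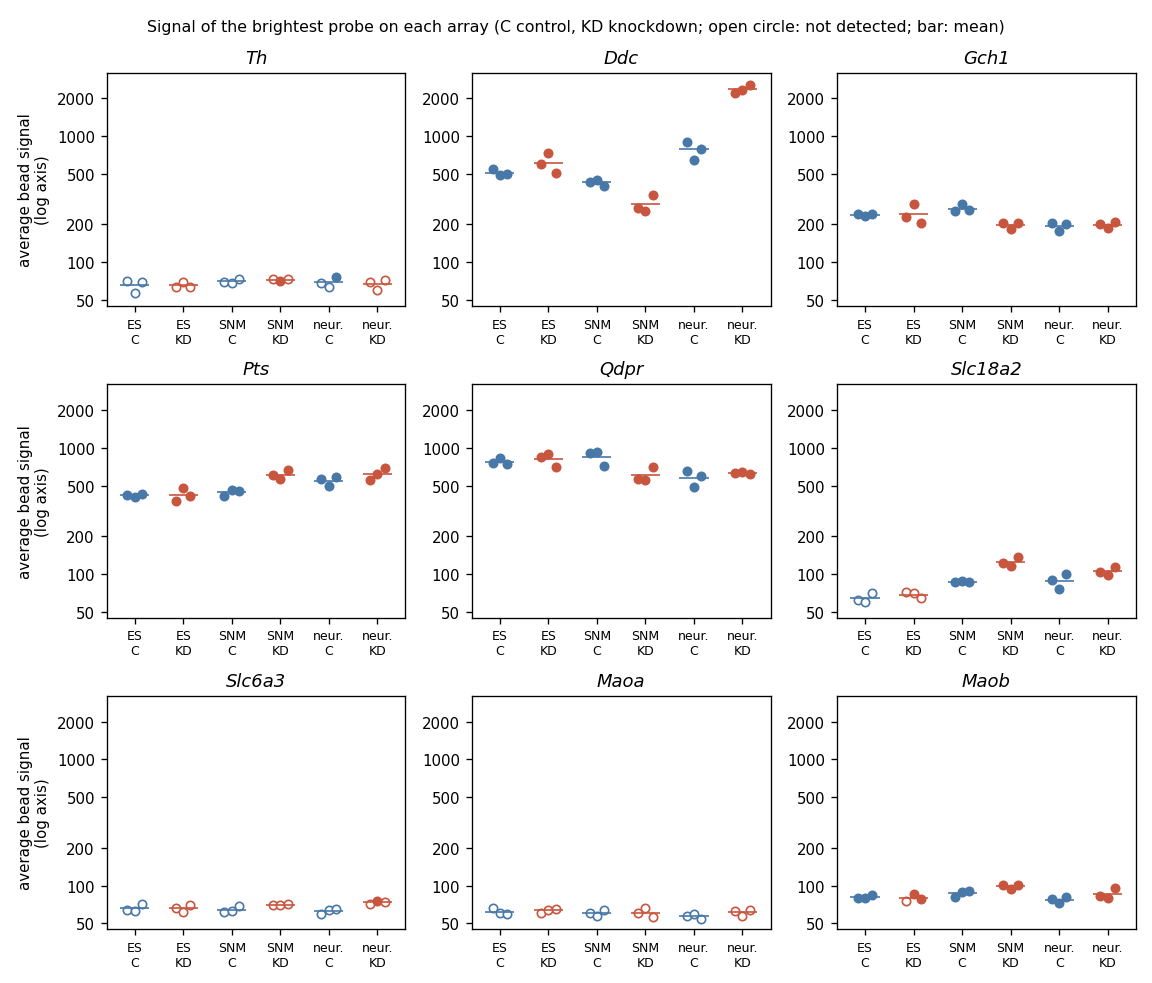
Average bead signal (log axis) of the brightest probe of each of the 9 genes on each of the 18 arrays, with control (C) in blue and knockdown (KD) in red at each stage, open circles where the probe was not detected, and a bar at the mean. The knockdown neuronal arrays for Ddc lie between 2208 and 2545, above all other Ddc arrays, while Th, Slc6a3 and Maoa stay between 54.2 and 77.1 throughout.

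The course of Ddc over differentiation had the same form in both cell types, a fall from the ES to the SNM stage and a rise to the neuronal stage, but it was larger in knockdown cells. In control cells it fell by 0.59 on the log2 scale between the ES and SNM stages (adjusted p = 5.05e-06) and rose by 1.02 between the SNM and neuronal stages (2.03-fold, adjusted p = 1.61e-08). In knockdown cells it fell by 1.44 (2.72-fold, adjusted p = 6.05e-11) and rose by 3.43 (10.8-fold, adjusted p = 9.44e-15). The knockdown effect itself differed between stages. It was lower at the SNM than at the ES stage by 0.85 ± 0.11 (adjusted p = 2.10e-05) and higher at the neuronal than at the SNM stage by 2.41 ± 0.11 (adjusted p = 4.30e-11). The fall in control cells lay at the edge of the 1.5-fold limit: without the first control ES array or without the third control SNM array it was not called, with values between -0.62 and -0.54 over the arrays left out, and without background correction it was -0.53 and under the limit. With the mean of the 3 Ddc probes in place of the brightest, both control changes were under the limit, the fall at -0.35 and the rise at 0.45.

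The other Ddc probes carry the symbol but no RefSeq accession in the annotation. The second probe gave 270, 296 and 292 in control and 405, 499 and 332 in knockdown ES cells, 254, 294 and 263 against 169, 154 and 171 at the SNM stage, and 475, 361 and 462 against 1289, 1354 and 1250 at the neuronal stage. Its log2 differences of 0.47 at the ES stage (adjusted p = 0.00289, under 1.5-fold), -0.98 at the SNM stage (adjusted p = 1.52e-07) and 1.76 at the neuronal stage (adjusted p = 5.04e-11) had the signs of the brightest probe. The third and dimmest Ddc probe gave 90.1, 79.1 and 81.0 in control and 79.5, 81.5 and 69.3 in knockdown ES cells, 86.3, 91.0 and 86.8 against 72.6, 66.6 and 75.6 at the SNM stage, and 74.6, 70.6 and 80.0 against 162, 151 and 175 at the neuronal stage. It was called lower in knockdown SNM cells, by 0.66 on the log2 scale (adjusted p = 0.000604), and higher at the neuronal stage, by 1.97 (adjusted p = 2.58e-09). All 3 probes were thus called lower in knockdown SNM cells and higher in knockdown neuronal cells. They disagreed on the course in control cells, where from the SNM to the neuronal stage the second probe rose by 0.81 (adjusted p = 7.20e-07) while the third was lower by 0.49 (adjusted p = 0.00468, under 1.5-fold), and where from the ES to the SNM stage the second differed by -0.47 and the third by 0.0011.

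**Figure D3:**
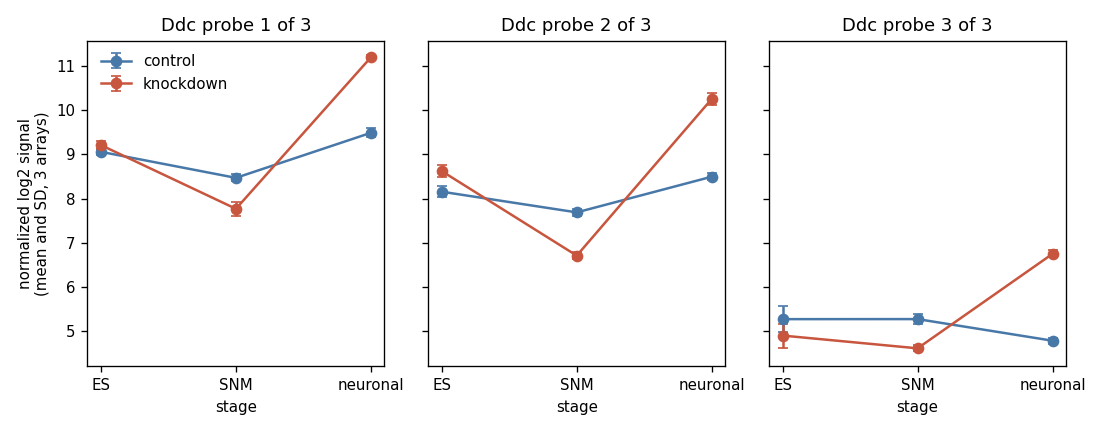
Normalized log2 signal (mean and SD of 3 arrays) of the 3 Ddc probes at each stage in control (blue) and knockdown (red) cells. In every panel the knockdown mean lies below the control mean for SNM cells and above it for neuronal cells, where the differences are 1.71, 1.76 and 1.97.

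The genes of the tetrahydrobiopterin cofactor changed less. Gch1, whose product GTP cyclohydrolase 1 makes the first step of cofactor synthesis, gave 241, 233 and 240 in control and 230, 291 and 206 in knockdown ES cells. SNM arrays gave 254, 288 and 258 in control and 204, 184 and 205 in knockdown cells, with no overlap, and at the neuronal stage 204, 178 and 202 in control and 202, 186 and 208 in knockdown cells. The SNM difference of -0.58 ± 0.06 on the log2 scale (1.499-fold, adjusted p = 1.28e-06) passed the test but lay just under the 1.5-fold limit. It was past the limit without the first control, the third control or the first knockdown SNM array, with values of -0.62 to -0.55 over the 6 arrays left out in turn. At the ES and neuronal stages the differences were -0.09 (95% interval -0.22 to 0.05) and 0.09 (-0.05 to 0.22). Gch1 fell in control cells between the SNM and neuronal stages, by 0.60 (1.51-fold, adjusted p = 5.80e-07), and in knockdown cells already from the ES to the SNM stage, by 0.69 (1.61-fold, adjusted p = 4.03e-08). The knockdown effect on Gch1 was higher at the neuronal than at the SNM stage by 0.67 ± 0.09 (adjusted p = 1.24e-05). Without background correction, none of these Gch1 changes was past the 1.5-fold limit, at -0.46 or -0.48, -0.54 under both scalings, and 0.52 or 0.54 in turn. With the mean of both Gch1 probes, the fall in knockdown cells was -0.27 (adjusted p = 0.0903) and the difference between the neuronal and SNM effects 0.47 (adjusted p = 0.0635). The second Gch1 probe, between 61.8 and 103 on all arrays, was detected on all 3 arrays in the knockdown SNM and knockdown neuronal conditions and on 2 in each of the others, and its difference at the SNM stage was 0.02 (95% interval -0.57 to 0.62).

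Pts, whose product 6-pyruvoyl-tetrahydropterin synthase follows in cofactor synthesis, gave 420, 411 and 429 in control and 380, 480 and 418 in knockdown ES cells. SNM arrays gave 417, 465 and 454 in control and 604, 566 and 665 in knockdown cells, and at the neuronal stage 562, 494 and 587 in control and 557, 617 and 697 in knockdown cells. Knockdown arrays lay above control arrays at the SNM stage, where the difference of 0.55 ± 0.07 on the log2 scale (1.46-fold, adjusted p = 3.52e-06) passed the test but not the 1.5-fold limit. The neuronal difference was 0.22 ± 0.07 (1.17-fold, adjusted p = 0.00806), also under the limit. The knockdown effect on Pts was higher at the SNM than at the ES stage by 0.63 ± 0.09 (adjusted p = 5.58e-05). This was not repeated by the dimmer Pts probe, for which it was 0.13 (95% interval -0.38 to 0.63), with the mean of both probes it was 0.38, and without background correction it was 0.57 or 0.45 and under the limit.

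Qdpr, whose product dihydropteridine reductase regenerates the cofactor, gave 761, 825 and 739 in control and 844, 890 and 703 in knockdown ES cells. SNM arrays gave 904, 919 and 718 in control and 563, 558 and 709 in knockdown cells, and at the neuronal stage 651, 490 and 594 in control and 637, 639 and 623 in knockdown cells. On both SNM conditions the third array stood apart and towards the other condition, yet the conditions did not overlap. Qdpr differed by -0.49 ± 0.10 at the SNM stage (1.41-fold, adjusted p = 0.000861), under the 1.5-fold limit, and by 0.18 at the neuronal stage (95% interval -0.04 to 0.40). Without the third control SNM array, Qdpr and Gch1 were both called lower at the SNM stage, and the number of the 9 genes called there rose from 2 to 4. The knockdown effect on Qdpr was higher at the neuronal than at the SNM stage by 0.67 ± 0.15 (adjusted p = 0.00127). Gch1 and Qdpr were thus lower in knockdown SNM arrays while Pts was higher, so the 3 cofactor genes did not move one way.

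**Figure D4:**
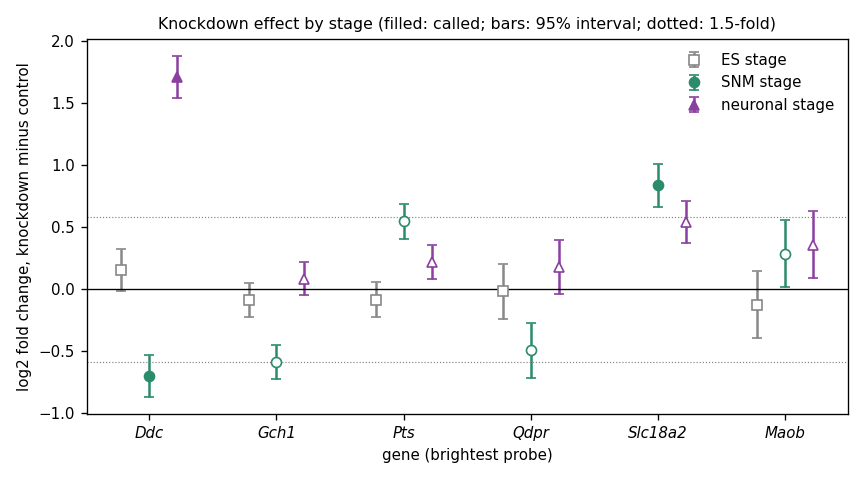
Log2 fold change, knockdown minus control, with 95% intervals for the 6 genes that could be tested at the ES (squares), SNM (circles) and neuronal (triangles) stages, filled where called, and dotted lines at 1.5-fold. Ddc lies at -0.70 for SNM and at 1.71 for neuronal cells, and Slc18a2, not tested at the ES stage, is the only other gene with a filled point, at 0.84 at the SNM stage.

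Slc18a2, the vesicular monoamine transporter, was not detected on any ES array and was detected on all 12 later arrays. Its single probe gave 62.2, 59.9 and 71.1 in control and 71.2, 70.6 and 64.0 in knockdown ES cells, 85.9, 88.3 and 86.7 against 123, 116 and 136 at the SNM stage, and 89.2, 76.5 and 99.4 against 103, 98.8 and 113 at the neuronal stage. From the ES to the SNM stage it was called higher in control and knockdown cells, against ES signals at background (limma, adjusted p = 5.52e-08 and 2.43e-11). Against the lowest signal detected on each ES array, which was not tested, it was at least 1.29-fold higher in control cells. That bound is under the 1.5-fold limit. In knockdown cells it was at least 2.21-fold higher by the same measure. At the SNM stage it was called higher in knockdown cells, by 0.84 ± 0.08 on the log2 scale (1.79-fold, adjusted p = 3.63e-07). The signals are close to background, and without background correction the difference between knockdown and control SNM cells was 0.43 or 0.48 and the rise in control cells from ES to SNM 0.46 or 0.16, all under the 1.5-fold limit. The neuronal difference of 0.54 ± 0.08 (1.46-fold, adjusted p = 2.71e-05) was under the limit, and past it, at 0.63, without the third control neuronal array. The difference between the SNM and ES knockdown effects was 0.70 ± 0.12 (adjusted p = 0.000172), and it rests on ES arrays on which the probe was not detected; without background correction it was 0.31 or 0.43 and under the limit. Slc6a3, the dopamine transporter, was detected on 1 of 18 arrays, the second knockdown neuronal array. It gave 59.5, 64.4 and 64.8 in control and 71.2, 76.0 and 73.7 in knockdown neuronal cells, which did not overlap, but 2 of these knockdown arrays were at background and the gene was not tested. On the ES and SNM arrays its signal lay between 61.3 and 71.8.

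Of the genes of breakdown, Maoa was detected on 0 of 18 arrays, with signals between 54.2 and 65.9. Maob, whose product is the monoamine oxidase found above all in glia and in serotonin neurons, was detected on 17 of 18 arrays with its brighter probe. That probe gave 80.0, 79.5 and 83.4 in control and 74.95, 85.4 and 77.7 in knockdown ES cells, 80.8, 88.6 and 90.1 against 101, 94.4 and 101 at the SNM stage, and 77.8, 72.5 and 80.5 against 82.2, 79.5 and 95.1 at the neuronal stage. Maob signals stayed near background at every stage. The log2 differences were 0.29 ± 0.13 at the SNM stage (1.22-fold, adjusted p = 0.0694) and 0.36 ± 0.13 at the neuronal stage (1.28-fold, adjusted p = 0.0235), and neither was called. The second Maob probe was detected on 0 of 18 arrays, at 53.6 to 75.1.

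Counts are of the brightest probe of each gene. At the ES stage 0 of the 5 genes tested were called between knockdown and control cells, beside 1.68% of the 18411 probes tested. An unadjusted p under 0.05 was found for 0 of the 5, beside 4761 of these 18411 probes. None of the 5 passed by the adjusted p alone or had conditions that did not overlap there on the normalized log2 scale, beside 11.3% and 31.6% of all probes tested. The second Ddc probe, not counted here, passed by the adjusted p at the ES stage, under 1.5-fold. Its ES conditions did not overlap. In SNM cells 2 of 6 were called, Slc18a2 higher and Ddc lower, beside 19.9% of 20765 probes, and at the neuronal stage 1 of 6, Ddc higher, beside 27.4% of 20893. By the adjusted p alone, 5 of 6 passed at the SNM stage and 4 of 6 at the neuronal stage, beside 52.7% and 58.1% of all probes tested. On the normalized log2 scale, the arrays of the conditions did not overlap for 6 of 6 at the SNM stage and for 4 of 6 at the neuronal stage, beside 56.1% and 62.8%. In the signals before normalization, as printed above, Pts, Slc18a2 and Maob did overlap at the neuronal stage. The median log2 difference of the genes tested was -0.10 in SNM and 0.29 in neuronal cells, beside -0.04 and 0.01 over all probes tested. Between stages, 2 of 6 were called from ES to SNM in control cells (beside 49.1%), 2 of 6 from SNM to neuronal in control cells (29.4%), 3 of 6 from ES to SNM in knockdown cells (57.3%) and 1 of 6 from SNM to neuronal in knockdown cells (28.6%). The knockdown effect differed between the SNM and ES stages for 3 of 6 (beside 21.3%) and between the neuronal and SNM stages for 3 of 6 (28.6%). Comparisons that meet at a stage share that stage's arrays.

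The wider monoamine pathway was taken as 30 further genes, all on the array, of which 15 were tested at the ES stage and 16 at each later stage. None was called at the ES stage, 3 were called higher and 2 lower at the SNM stage, and 3 higher and 2 lower in neuronal cells. Of the 5 other cofactor genes, Pcbd1, whose product recycles the cofactor, was called lower in knockdown SNM cells (127 ± 9.99 in control and 85.8 ± 6.44 in knockdown, mean signal ± SD, log2 difference -1.10, adjusted p = 2.58e-05). It was called higher in knockdown neuronal cells (88.0 ± 14.8 and 127 ± 8.99, log2 difference 1.02, adjusted p = 3.71e-05), which is the same reversal of sign as in Ddc. The signals of Pcbd1, and of Tph2 and Aldh1a1 below, lie near background, unlike those of the brightest Ddc probe. The alternatives without background correction were run for the 9 genes alone. Gchfr, whose product restrains GTP cyclohydrolase 1, was called lower in knockdown neuronal cells (160 ± 24.5 and 78.3 ± 4.70, log2 difference -1.68). Of 5 genes of other monoamine synthesis, Tph2, the neuronal tryptophan hydroxylase of serotonin synthesis, was called higher in knockdown SNM cells (71.5 ± 5.09 and 110 ± 7.08, log2 difference 1.12), where 1 control and all 3 knockdown arrays detected it. Tph1 and Dbh were not detected on all 3 arrays of any condition, and none of the 5 further transporters was called at either later stage.

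Of the 6 further genes of breakdown, Aldh1a1, an aldehyde dehydrogenase also found in a group of midbrain dopamine neurons, was called higher in knockdown cells at both later stages (79.5 ± 5.51 against 130 ± 9.72 at the SNM stage and 87.3 ± 2.86 against 133 ± 5.2 at the neuronal stage, log2 differences 1.22 and 1.12). Akr1b3, aldose reductase, was called lower at the SNM stage (2294 ± 56.5 in control and 1186 ± 196 in knockdown, log2 difference -0.96), and Sult1a1, a sulfotransferase, was called lower at the neuronal stage (337 ± 53.6 and 179 ± 2.46, log2 difference -1.11). Of 9 genes of dopamine receptors and signalling, the receptor gene Drd1a was detected on all 3 knockdown SNM arrays and on no control SNM array. It was at least 1.36-fold higher there, a bound under the 1.5-fold limit. Gng7, a G protein subunit, was called higher at the neuronal stage (170 ± 15.5 and 279 ± 9.66, log2 difference 1.01). Drd2, Drd3, Drd4, Drd5 and Adcy5 were not detected on all 3 arrays of any condition.

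**Figure D5:**
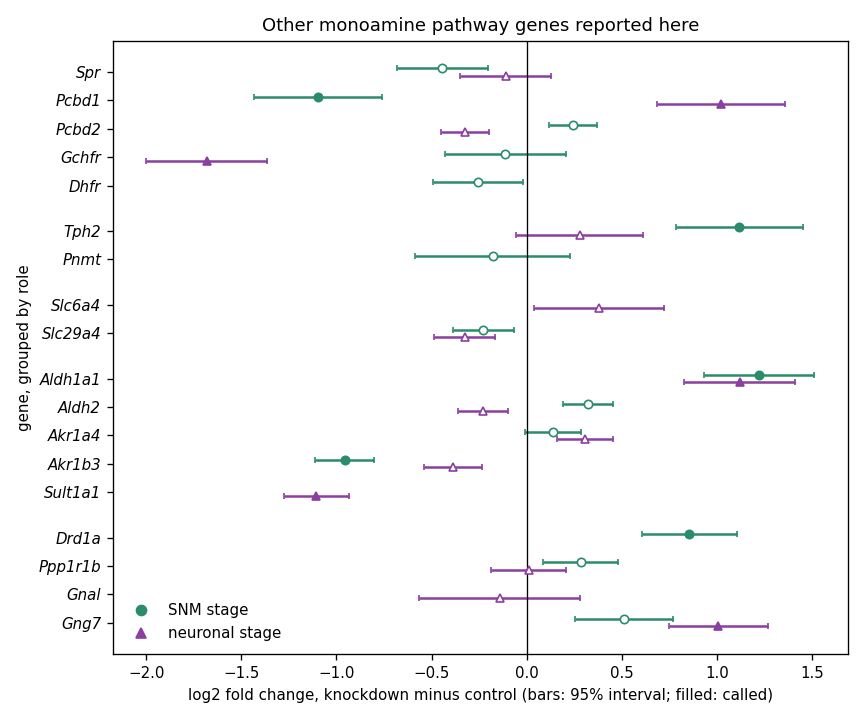
Log2 fold change, knockdown minus control, with 95% intervals for further monoamine pathway genes reported here with a probe tested at the SNM (circles) or neuronal (triangles) stage, grouped by role from cofactor genes at the top to receptors and signalling at the bottom, filled where called. Pcbd1 lies at -1.10 for SNM and 1.02 for neuronal cells, and Aldh1a1 at 1.22 and 1.12.

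The label of a dopaminergic differentiation was set beside marker genes of midbrain dopamine neurons, of which 8 were on the array. Pitx3, which these neurons need to survive, and Lmx1b were detected on no array of the SNM or neuronal stage. Nr4a2, whose product activates Th, differed by -0.38 at the SNM stage (adjusted p = 0.124) and 0.14 at the neuronal stage (adjusted p = 0.579). At the SNM stage Lmx1a and Foxa2, transcription factors of the midbrain floor plate, were called higher in knockdown cells (log2 differences 2.42 and 1.05) and En1 and En2, of the midbrain and hindbrain, lower (-1.005 and -2.80). At the neuronal stage Lmx1a was called higher (1.10) and Otx2 lower (-0.80). The summed normalized signal of the 8 genes lay between 3329 and 3887 in control and 1913 and 2304 in knockdown SNM arrays, and between 1838 and 1958 and between 1707 and 1843 at the neuronal stage. Th, Slc6a3 and Pitx3, markers of mature dopamine neurons, had no signal shared by the arrays of a condition. At the neuronal stage Th was detected on 1 control array and Slc6a3 on 1 knockdown array. This does not show that their RNA was absent. Of the 8 midbrain genes, 5 in control and 6 in knockdown cells were detected on all 3 neuronal arrays.

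Markers of other cell types also differed between knockdown and control cells, some higher and some lower. At the neuronal stage, 8 of 8 oligodendrocyte markers were called higher in knockdown cells, with a summed normalized signal of 3211 to 3375 in control and 62610 to 66021 in knockdown arrays. Cnp1 and Cnp, an older and a current symbol of the same gene, are both in this list and both counted. Of the astrocyte markers, 5 of 6 were called higher (5884 to 6674 and 9850 to 10787). At that stage 6 of 8 neuron markers tested were called lower (8005 to 8342 and 1849 to 1890, with Tubb3 detected on no knockdown array and Snap25 and Nefl on no array), 7 of 7 skeletal muscle markers lower (54121 to 54522 and 118 to 217, with Ckm and Myog not detected in knockdown cells) and 6 of 6 fibroblast markers lower (21460 to 24682 and 11119 to 14374). Of the cells that use Ddc without Th, serotonin neurons had 2 of 4 markers tested called lower, Gata2 and Gata3 (355 to 386 and 175 to 185). The serotonergic markers Tph2 and Slc6a4 were tested and not called. Fev, which defines these neurons, was detected on no array. Endoderm markers had 2 of 2 tested called higher (84.7 to 93.2 and 131 to 169, with Afp and Alb detected in neither). Noradrenergic markers had 1 of 2 tested called lower, and Dbh was detected on no array. The pluripotency markers were lower, 3 of 3 (2327 to 2406 and 537 to 602), hypothalamic markers had 1 of 1 tested called higher (26.2 to 37.2 and 205 to 215), endothelial markers 1 of 1 lower, and macrophage markers 0 of 2. The part of these cell types in the change of Ddc was not tested.

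At the SNM stage, where Ddc was lower and Slc18a2 higher in knockdown cells, 2 of 2 hypothalamic markers tested were called higher, with a summed normalized signal of 21.2 to 31.03 in control and 1661 to 1725 in knockdown arrays, and Otp and Sim1 detected in neither. Endoderm markers had 2 of 2 tested called higher, Ttr and Apoa1 (50.1 to 56.8 and 371 to 399), with Afp, Alb and Apoa2 detected in neither. Astrocyte markers had 3 of 6 called higher (5269 to 6140 and 10006 to 10189). Oligodendrocyte markers had 4 of 7 called lower (14505 to 14928 and 10241 to 11027), with Cnp1 and Cnp again both counted. Neuron markers had 1 called higher and 2 lower of 8 tested (4764 to 4921 and 4642 to 4718), and serotonergic markers 1 higher of 3, which was Tph2. Of the remaining lists, 5 of 6 skeletal muscle, 2 of 6 fibroblast and 2 of 3 endothelial markers were called higher, noradrenergic markers had 1 higher and 1 lower of 2, pluripotency markers 2 of 3 lower and macrophage markers 0 of 2. Their part in the differences of Ddc and Slc18a2 was not tested.

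As a last description, the profile of each tested gene over the 6 condition means was centred on its own mean. It was set beside those of the other symbols with a probe detected on every array of some condition. The 3 with the smallest root mean square difference were named. This difference is in log2 units and is not scaled by the span, so it tends to be larger for a gene of wide span. Ddc, whose means spanned 3.43 log2 units, had the largest differences from its nearest symbols. These were LOC278188 (0.37), the homeobox gene Hoxa7 (0.38) and LOC383960 (0.41). Slc18a2, which spanned 1.72, was matched far more closely, by Thbs3 (0.03), Noxo1 (0.07) and EG434402 (0.07). For Gch1, Pts, Qdpr and Maob, which spanned 0.61 to 0.79, the nearest differed by 0.04 to 0.06, and Dolpp1 was the nearest to both Gch1 and Qdpr. These are values over 6 conditions.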

How the data were processed

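Expression was measured on 18 Illumina arrays in 6 conditions of 3 arrays, with groups and array numbers taken from the sample titles. The authors deposited signal intensities averaged over beads, neither background-subtracted nor normalized, and a detection p-value for each. A second deposited table supplied only probe annotation; its 72 columns of per-sample values were not matched to samples and not used. Signals were processed in R 4.3.3 with limma 3.58.1 (function neqc: background inferred from the detection p-values, offset 16, quantile normalization, log2), and 1 model with the 6 conditions was fitted with lmFit and eBayes. Tests are two-sided and were checked on simulated data. A fold change against a condition with no detected array is a lower bound. Array numbers were checked for pairing by the correlation, over probes, of the deviations of control and knockdown arrays. Arrays of equal number correlated at -0.09 to 0.10 at the ES, 0.11 to 0.49 at the SNM and 0.09 to 0.61 at the neuronal stage. Arrays of unequal number reached 0.19 at the SNM and 0.40 at the neuronal stage. Of the 14 probes, 11 matched an Entrez gene with the same current symbol. Promoter sequences are from RefSeq; Maob was not matched. The genes named are the 9 members, Hprt1, pathway genes called at the SNM or neuronal stage, marker genes and profile neighbours. Members and lists were chosen with earlier results of these data known, and the marker genes given with values were named after these were seen. Some genes of the lists are counted but not reported here by name. Alternatives covered background correction, scaling, detection filters, minimum fold, arrays in the fit, array number as a block, the methods' t-test, the mean of a gene's probes and leaving out each array.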

Additional observations from a re-analysis of the deposited data

Results flagged for a closer look

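For 4 of the 9 genes, of which 6 could be tested, the knockdown effect was called different between consecutive stages: Ddc, Pts, Gch1 and Qdpr. The test was of the difference itself (limma, Benjamini-Hochberg adjusted over all probes tested). Of all probes tested, 21.3% were called between the SNM and ES stages and 28.6% between the neuronal and SNM stages. Slc18a2 passed the same test, but its probe was detected on 0 of 6 ES arrays, so its value is a difference from background. Between the SNM and ES stages the effect on Ddc was lower by 0.85 on the log2 scale (a difference of -0.85 ± 0.11 SE, adjusted p = 2.10e-05), while the effects on Pts and Slc18a2 were higher by 0.63 ± 0.09 (adjusted p = 5.58e-05) and 0.70 ± 0.12 (adjusted p = 0.000172). Without background correction these were 0.57 or 0.45 for Pts and 0.31 or 0.43 for Slc18a2, under the 1.5-fold limit. The dimmer Pts probe did not repeat the difference, and with the mean of both probes it was 0.38. Between the neuronal and SNM stages the effect on Ddc was higher by 2.41 ± 0.11 (adjusted p = 4.30e-11), on Gch1 by 0.67 ± 0.09 (adjusted p = 1.24e-05) and on Qdpr by 0.67 ± 0.15 (adjusted p = 0.00127). Without background correction the Gch1 value was 0.52 or 0.54, also under the limit. With the mean of both Gch1 probes it was 0.47 (limma, adjusted p = 0.0635). The differences are between RNA pools, and both comparisons share the SNM arrays.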

How the results depend on the processing

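The direction and the call of Ddc at the neuronal stage held under every alternative run, with log2 values of 1.63 to 1.81, and at the SNM stage the direction held in all, with values of -0.79 to -0.60, the call being lost only at a 2-fold minimum. At the SNM stage, quantile normalization or 75th percentile scaling without background correction each left 1 gene called between knockdown and control, and a 2-fold minimum 0. From ES to SNM in control cells, the numbers called were 0, 0 and 0 under these 3 settings and 1 with the mean of a gene's probes; from SNM to neuronal in control cells, 1, 1, 1 and 1, the gene being Ddc under the first 3 and Gch1 with the mean of a gene's probes. For the difference between SNM and ES effects, they were 1, 1 and 0 under the 3 settings, and a 2-fold minimum left 1 for the difference between neuronal and SNM effects. Leaving out 1 array gave 2 to 4 genes at the SNM stage, 1 to 2 at the neuronal stage (2 without the third control neuronal array), 1 to 2 from ES to SNM in control cells (1 without the first control ES or the third control SNM array) and 1 to 3 from SNM to neuronal in control cells (1 without the second control SNM or the third control neuronal array, and 3, with Qdpr lower, without the third control SNM or the first control neuronal array). Called genes turned sign under no alternative. Of uncalled values, scaling to the 75th percentile turned Qdpr at the ES stage to 0.013, Maob from ES to SNM in control cells to -0.18 and Slc18a2 from SNM to neuronal in control cells to -0.0095, and the mean of probes turned Pts to 0.028 at the ES stage and 0.13 from ES to SNM in control cells. Over the arrays left out, values spanned 0 for Maob (-0.25 to 0.044) and Qdpr (-0.080 to 0.053) at the ES stage, for Maob (-0.011 to 0.15) and Qdpr (-0.15 to 0.054) from ES to SNM and Slc18a2 (-0.086 to 0.080) from SNM to neuronal in control cells, and for Maob in the difference between neuronal and SNM effects (-0.012 to 0.16). The cause was not tested. With the array number as a block, for the pairing, there were 2 genes called for SNM, 1 for neuronal and 0 for ES cells, and no count of calls changed in any comparison. The methods' t-test gave the same 2, 1 and 0, before and after Benjamini-Hochberg adjustment. Depth here is signal over background: Th, Slc6a3 and Maoa gave no testable value, and the values of Slc18a2 and Maob lie near background.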
